A study of Homo sapiens with 50 samples.

Results

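The transcripts of 9 nuclear receptors that sense lipids, bile acids and foreign chemicals in the liver, and of the coactivator PPARGC1A, were followed in HepaRG cells exposed to 3 herbicides. HepaRG is an established human hepatic line that matures in culture into hepatocyte-like and biliary-like cells. The 10 genes were chosen by name from the 56567 gene names of the deposited expression table: RXRA, PPARA, PPARD, PPARG, PPARGC1A, NR1I2, NR1I3, NR1H3, NR1H4 and NR5A2. Their level in a library is the sum of the FPKM (fragments per kilobase of transcript, scaled to library depth) of all transcripts that carry the gene's name. All 10 passed the filter on low values, which kept 15152 genes that reached 1 FPKM in 5 or more libraries, and NR1I3 passed it with the smallest number, 5 of 49 libraries.

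The receptors share one design. An N-terminal region is followed by a DNA-binding domain that reads variants of a short hexamer and by a pocket that binds small lipophilic molecules. RXRA is the common partner: the PPARs, NR1I2 (PXR), NR1I3 (CAR), NR1H3 (LXRalpha) and NR1H4 (FXR) bind DNA as pairs with an RXR, whereas NR5A2 (LRH-1) binds as a monomer. In hepatocytes PPARA is known for switching on fatty acid oxidation, PXR and CAR for drug metabolism, LXRalpha for cholesterol export and lipid synthesis, and FXR together with LRH-1 for the control of bile acid synthesis. PPARG is best known from adipocytes, where it drives lipid storage, and PPARD is expressed in most tissues. PPARGC1A (PGC-1alpha) binds no ligand and acts as a coactivator of several of these receptors.

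Differentiated cells were exposed from day 8 to day 14 in a test medium with 2% fetal bovine serum and 1% DMSO, which all groups shared. The treated groups received quizalofop-p-ethyl, mesotrione or isoxaflutole at 0.1 µM, 10 µM or 1 mM, and the control group received none of them. Mesotrione and the active form of isoxaflutole block 4-hydroxyphenylpyruvate dioxygenase in plants, and quizalofop-p-ethyl blocks plant acetyl-CoA carboxylase. Each of the 10 groups had 5 libraries of total RNA depleted of ribosomal RNA. The libraries were sequenced in 3 pools that the labels do not assign, so pool and group could not be set against each other. The labels do not tie replicates to separate cultures, so the p-values measure the spread between these libraries, which may be technical. By number the labels form 5 runs, each with a library of every group, which no label ties to a batch. The fits below have no term for these runs unless a block is named.

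In 49 libraries the depth estimated from the steps of the FPKM values was 7080000 to 33900000 fragments (median 14100000), and 11718 to 13774 genes reached 1 FPKM. The remaining library, of quizalofop-p-ethyl at 10 µM, had an estimated 3720000 fragments, only 5084 such genes and a level of 5.03 FPKM for RXRA; it was left out, so that group had 4 libraries. The hepatocyte label was borne out in the control libraries, where 13 of 14 hepatocyte markers averaged at least 1 FPKM. Of the 10 biliary markers 5 did, with EPCAM and KRT23 under 0.1, and of the 10 mesenchymal markers 6 did, with COL1A2 under 0.1. The summed hepatocyte markers were 19110 to 23390 FPKM in the control libraries and 246 to 5550 after quizalofop-p-ethyl at 1 mM, with ALB falling from 9420 ± 770 to 945 ± 1040 (mean ± SD, n = 5). At 1 mM of mesotrione they were 12300 to 20340 and at 1 mM of isoxaflutole 10220 to 19340. Biliary markers summed to 424.7 to 562.9 FPKM with mesotrione and 484.5 to 610.8 with isoxaflutole, against 636.1 to 727.4 in control. Mesenchymal ones summed to 21.65 to 33.91 and 21.51 to 29.11, against 52.94 to 68.54. Neither the biliary nor the mesenchymal sums overlapped control. In bulk RNA, fewer hepatocyte-like cells and less RNA per cell cannot be told apart, and this applies to every receptor described here.

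In unexposed cells RXRA stood well above the others, at 39.3 ± 2.30 FPKM (mean ± SD, n = 5). It was followed by NR1H3 at 9.44 ± 1.18, PPARG at 9.03 ± 1.25, NR1H4 at 7.30 ± 2.11, NR5A2 at 6.10 ± 0.541, PPARD at 6.06 ± 3.53, PPARGC1A at 4.85 ± 1.33, PPARA at 3.49 ± 2.35 and NR1I2 at 2.03 ± 0.390. NR1I3 closed the order at 0.524 ± 0.272. Only RXRA above NR1H3, and NR1I2 above NR1I3, were neighbours whose control libraries did not overlap. RXRA ranked 1071st and NR1I2 10936th among all genes by control mean, of which 13172 reached 1 FPKM, so the xenobiotic sensors PXR and CAR were the least expressed receptors here. The estimated number of fragments behind a value was correspondingly uneven, with a median of 968 per library for RXRA, 69 for NR1I2 and 8 for NR1I3.

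The order depended on which transcripts were counted. The authors' assembly holds transcripts without a gene name, and at the PPARA locus these carried 66.4% of the FPKM, from 38.8% to 87.1% in single libraries. With them PPARA stood at 11.9 ± 0.577 FPKM in the control libraries, second to RXRA, and its coefficient of variation there fell from 67.2% to 4.84%. Unnamed transcripts held 23.7% at PPARD, 19.5% at NR5A2, 11.3% at NR1H3 (where the locus is shared with MADD, so they were not added) and 8.94% at NR1H4, and at most 4.42% at the other 5 loci. Both sums are given below for the results in which they led to different calls or sizes among PPARA, PPARD and NR5A2.

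**Figure D1:**
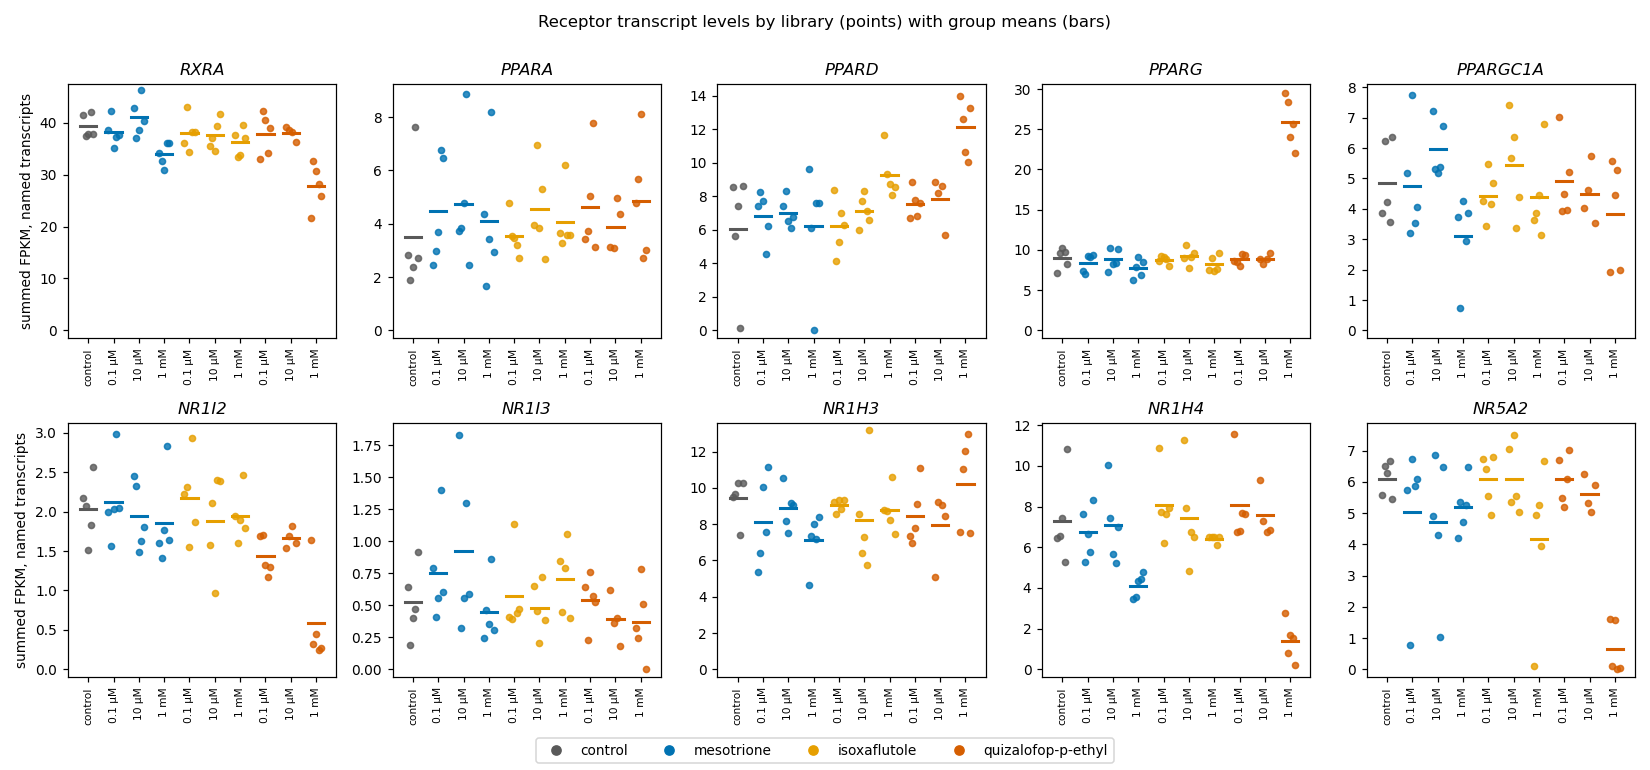
Summed FPKM of the named transcripts of each gene (vertical axes, linear, 1 scale per panel) in each library (points) of the 10 groups, with the group mean as a bar; quizalofop-p-ethyl at 10 µM has 4 points and the other groups 5. PPARG lies between 22.0 and 29.5 FPKM after 1 mM quizalofop-p-ethyl and at or under 10.7 in all other libraries, while NR1H4 and NR5A2 lie lowest in that group; the single points near 0 for PPARD and NR5A2 in other groups are libraries in which unnamed transcripts carried the locus.

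The first question was whether any compound changed the receptors against control. Only quizalofop-p-ethyl at 1 mM did by the test used, limma on log2(FPKM + 1) with Benjamini-Hochberg adjustment over all 15152 genes and a threshold of 0.05. In other limma fits NR1H4 passed at 1 mM mesotrione with the runs of label numbers as a block (adjusted p = 0.0202). PPARD passed at 1 mM isoxaflutole with unnamed transcripts counted (adjusted p = 0.0400 by limma). At 1 mM quizalofop-p-ethyl PPARG and PPARD rose and NR5A2, NR1H4, NR1I2 and RXRA fell, that is 6 of 10 genes, where 41.7% of all genes tested were called in the same comparison. In direction, the 2 that rose stand beside 17.3% of all genes and the 4 that fell beside 24.4%. Libraries of the groups did not overlap for 5 of the 10, beside 29.6% of all genes. The median log2 fold change of the 10 was -0.25 and that of all genes -0.06. The share of the 10 that was called was thus read against a background in which calls were common. PPARA, PPARGC1A, NR1H3 and NR1I3 did not pass, at 0.43, -0.33, 0.08 and -0.16 on the log2(FPKM + 1) scale with adjusted p of 0.264, 0.297, 0.749 and 0.506 from limma. Every log2 change from limma below is on this scale unless another pseudocount is named. The added 1 shrinks changes at low FPKM, so a value can be smaller than the log2 ratio of mean FPKM.

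**Figure D2:**
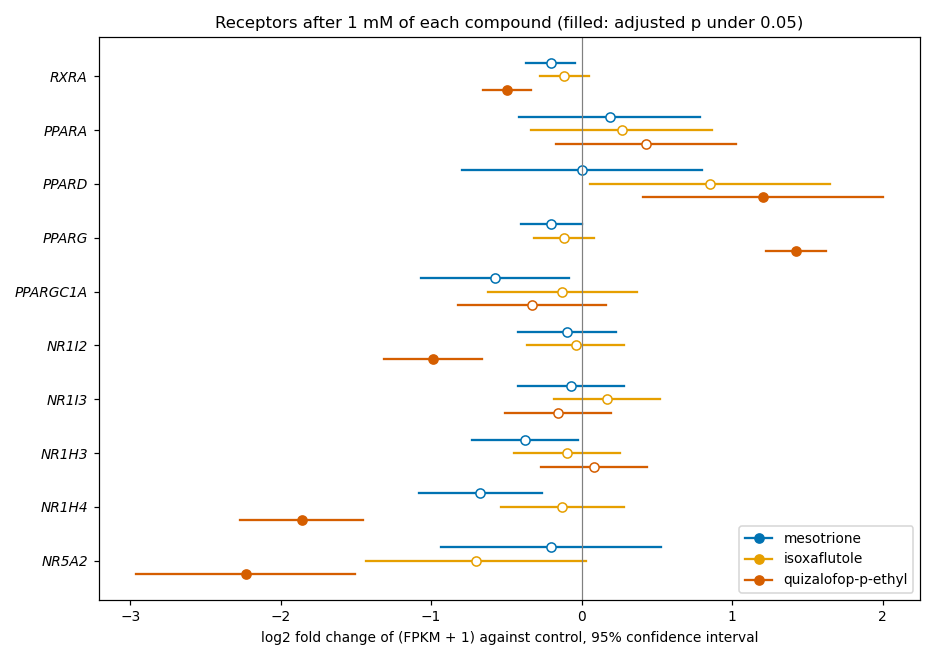
Log2 fold change of (FPKM + 1) of the named transcripts against control at 1 mM, with the 95% confidence interval from limma, for the 3 compounds; filled points passed an adjusted p of 0.05. Filled points occur only for quizalofop-p-ethyl, from NR5A2 at -2.23 to PPARG at 1.43, and the wide intervals of PPARD and NR5A2 come with the libraries in which their named transcripts were near 0.

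PPARG (chr3:12287368-12434356), the receptor of adipocyte lipid storage, showed the clearest rise. The control libraries had 7.19, 9.65, 10.2, 9.81 and 8.32 FPKM and the libraries at 1 mM quizalofop-p-ethyl 29.5, 28.4, 24.1, 25.7 and 22.0. The lowest exposed library was thus above the highest control library, and the ratio of the means was 2.87. The log2 fold change was 1.43 (SE 0.10, adjusted p = 5.21e-16 by limma). At 1 mM mesotrione PPARG was 6.33 to 9.12 FPKM and at 1 mM isoxaflutole 7.42 to 9.60, both overlapping the control range. All 29 libraries at 0.1 and 10 µM were between 7.07 and 10.7.

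Almost all of this signal was on transcripts that begin at the cluster of upstream start sites, chr3:12287368-12289111 (GRCh38), which served 98.6% of the locus FPKM in control and 96.7% at 1 mM quizalofop-p-ethyl. PPARG-202, the leading transcript, had a mean of 5.17 FPKM in control and 15.1 at 1 mM quizalofop-p-ethyl, PPARG-207 1.36 and 5.97, and PPARG-206 1.39 and 3.22. The 3 transcripts that begin near the start of the adipocyte form PPARG2 (2 at position 12351472 and 1 at 12351569) together reached at most 1.78 FPKM in any of the 49 libraries and 0.0674 at 1 mM quizalofop-p-ethyl. The rise was therefore seen at the upstream starts and not at the PPARG2 start. The 250 bases before 2 RefSeq start sites (GRCh38.p14, plus strand) are shown to place the clusters: chr3:12287118-12287367, which ends at the base before the upstream cluster, and chr3:12351167-12351416, just upstream of the PPARG2 start. The first is not the window before the starts that carried the signal: PPARG-205, which begins right after it, held 0.0726% of the locus, while PPARG-202 begins at 12287860, PPARG-207 at 12287901 and PPARG-206 at 12288838. Capitals mark the nuclear receptor hexamer AGGTCA on either strand.
PPARG upstream window: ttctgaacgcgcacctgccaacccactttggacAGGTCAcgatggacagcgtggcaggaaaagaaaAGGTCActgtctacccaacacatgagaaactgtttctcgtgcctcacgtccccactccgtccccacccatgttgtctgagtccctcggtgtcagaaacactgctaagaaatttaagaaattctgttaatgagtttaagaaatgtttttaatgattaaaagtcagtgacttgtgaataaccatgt
PPARG2 window: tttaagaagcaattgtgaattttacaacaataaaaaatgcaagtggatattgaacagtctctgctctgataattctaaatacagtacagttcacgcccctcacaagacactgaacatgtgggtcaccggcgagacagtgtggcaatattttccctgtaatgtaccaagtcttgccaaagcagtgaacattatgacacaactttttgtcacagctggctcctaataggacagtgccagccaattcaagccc
The upstream window holds the hexamer at 2 places and the PPARG2 window at none. Neither holds the TATA element TATAAA, which was searched on both strands as well. A further RefSeq window inside the cluster, chr3:12288810-12289059, has the hexamer once, after a TATA element on the opposite strand. PPARG-206 begins inside this window, upstream of both. Among all 35116 RefSeq windows of this length 12.1% hold the hexamer, 1.02% at 2 or more places, and 10.7% the TATA element. These matches describe the letters and say nothing about binding in these cells.

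PPARD (chr6:35342558-35428191), the widely expressed member of the family, was higher too, but its named transcripts were not a steady measure. The control libraries had 8.54, 5.62, 7.40, 0.134 and 8.61 FPKM and the libraries at 1 mM quizalofop-p-ethyl 14.0, 12.6, 10.6, 10.1 and 13.3. No exposed library reached down to the control range, and the log2 fold change was 1.20 (SE 0.40, adjusted p = 0.0119 by limma). Without control replicate 4 the change was 0.62 with an adjusted p of 0.127. That library was not empty at the locus: with unnamed transcripts it had 8.60 FPKM, among 9.15, 10.1, 8.54 and 10.6 in the other control libraries.

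With unnamed transcripts counted, PPARD was 20.2, 14.8, 14.6, 13.3 and 15.5 FPKM at 1 mM quizalofop-p-ethyl, and the groups again did not overlap. The change was then smaller and firmer, at 0.67 (SE 0.10, adjusted p = 1.98e-07 by limma). On the same sum isoxaflutole at 1 mM gave 9.89 to 13.5 FPKM. This group overlapped the control libraries, and its change of 0.33 (SE 0.10) passed with an adjusted p of 0.040, whereas the named transcripts gave 0.85 (SE 0.40) with an adjusted p of 0.297. Mesotrione at 1 mM gave 8.54 to 11.1 FPKM on this sum, and 1 of its libraries had only 0.0399 FPKM on named transcripts. PPARD-203, which begins at 35342558 on chromosome 6, carried 75.1% of the locus over the 49 libraries.

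PPARA (chr22:46150521-46243756), the liver's regulator of fatty acid oxidation, is the gene with the largest share of FPKM on unnamed transcripts. On named transcripts the control libraries had 2.84, 1.90, 2.36, 7.63 and 2.71 FPKM and the libraries at 1 mM quizalofop-p-ethyl 4.79, 5.69, 8.12, 2.71 and 3.03. With unnamed transcripts they had 11.01, 12.1, 11.8, 12.5 and 12.3 against 11.5, 12.9, 13.4, 11.7 and 9.38. The groups overlapped in both, and the log2 change went from 0.43 to -0.03 (95% interval -0.17 to 0.12, adjusted p = 0.796 by limma). On the full sum mesotrione at 1 mM had 12.8 to 16.3 FPKM and isoxaflutole 12.7 to 14.0, both above every control library, yet at 0.22 and 0.14 with adjusted p of 0.122 and 0.310 neither passed. Set directly against mesotrione at 1 mM, quizalofop-p-ethyl was lower by this sum, at -0.24 (SE 0.07, adjusted p = 0.00519), and not by the named transcripts, at 0.24 (SE 0.30, adjusted p = 0.565).

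**Figure D3:**
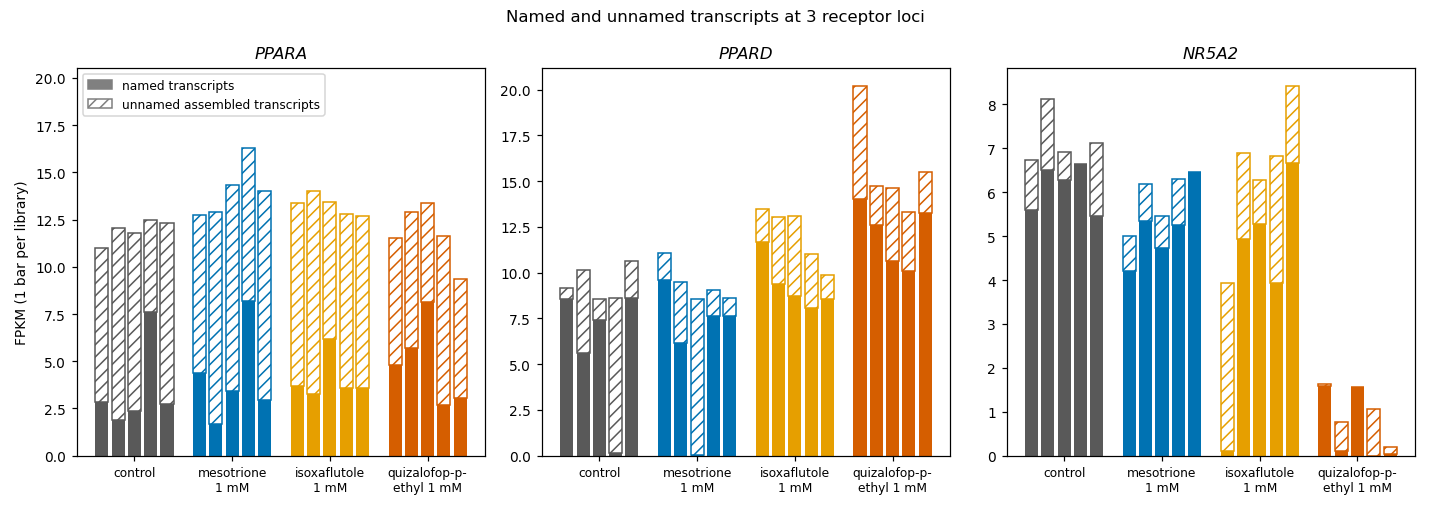
FPKM of named transcripts (solid) and of unnamed assembled transcripts of the same locus (hatched), stacked, with 1 bar per library for control and the 3 groups at 1 mM. PPARA is near 12 FPKM in total in the control libraries whatever its named part, PPARD keeps its rise at 1 mM quizalofop-p-ethyl, and NR5A2 stays at or under 1.63 FPKM there with both parts counted.

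PPARGC1A (chr4:23755041-23904089, minus strand), the coactivator, varied among the exposed libraries without a call. At 1 mM quizalofop-p-ethyl it had 1.93, 5.57, 4.46, 5.30 and 1.98 FPKM against 3.88, 6.23, 4.22, 3.58 and 6.35 in control, which overlapped. Mesotrione at 1 mM gave 3.73, 0.754, 4.27, 2.96 and 3.86, of which the low library had 3.59 with its unnamed transcript. The log2 change for mesotrione was -0.58 on named transcripts and -0.24 with the unnamed one, with adjusted p of 0.345 and 0.722 by limma.

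NR5A2 (LRH-1) and NR1H4 (FXR), the pair that governs bile acid synthesis, showed the largest falls among the 10. NR5A2 (chr1:200027602-200177424) had 5.59, 6.50, 6.29, 6.65 and 5.46 FPKM in control and 1.59, 0.117, 1.56, 0 and 0.0474 at 1 mM quizalofop-p-ethyl, where 1 library is listed at 0. Every exposed library was under every control library. Mean FPKM went from 6.10 to 0.664, and the log2 fold change of (FPKM + 1) was -2.23 (SE 0.36, adjusted p = 1.72e-06 by limma). With unnamed transcripts the exposed libraries had 1.63, 0.769, 1.56, 1.07 and 0.189 FPKM against 6.65 to 8.13, for a change of -2.04 (SE 0.14, adjusted p = 1.90e-16). Exposed replicates 2 and 4, at 0.117 and 0 FPKM on named transcripts, thus had 0.769 and 1.07 with unnamed ones, still under every control library. Low single values in other groups gained more: isoxaflutole replicate 1 at 1 mM had 0.115 FPKM on named transcripts and 3.94 with unnamed ones. Mesotrione replicate 2 at 0.1 µM had 0.763 and 8.61. Isoxaflutole at 1 mM was at -0.70 against control on named transcripts and at -0.15 with unnamed ones, and passed on neither (adjusted p of 0.370 and 0.662 by limma). Mesotrione at 1 mM had 4.21 to 6.46 FPKM on named transcripts, which overlapped control. With unnamed ones it had 5.01 to 6.46, under every control library, and did not pass (-0.24, adjusted p = 0.541 by limma). Transcripts that begin at chr1:200027572-200027883 made up 90.3% of the NR5A2 locus in control, and they had 6.41 ± 0.848 FPKM there and 1.03 ± 0.613 at 1 mM quizalofop-p-ethyl (mean ± SD, n = 5).

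NR1H4 (chr12:100473708-100564413), the bile acid receptor, had 6.44, 6.53, 7.42, 5.29 and 10.8 FPKM in control and 2.78, 0.799, 1.69, 1.55 and 0.193 at 1 mM quizalofop-p-ethyl. The groups did not overlap, and the ratio of the means was 0.192. The log2 fold change of (FPKM + 1) was -1.86 (SE 0.20, adjusted p = 2.46e-10 by limma). Mesotrione at 1 mM came next, with 3.47, 3.55, 4.36, 4.42 and 4.78 FPKM, all under the lowest control library. Its change of -0.67 (SE 0.20, 95% interval -1.08 to -0.26) did not pass, with an adjusted p of 0.0890, and with unnamed transcripts the groups overlapped (-0.58, adjusted p = 0.183). The change on named transcripts passed with the runs of label numbers fitted as a block (adjusted p = 0.0202 by limma). No label ties these runs to a batch. Isoxaflutole at 1 mM held close together at 6.52, 6.49, 6.49, 6.10 and 6.50, inside the control range.

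NR1H4 is read from 2 clusters of start sites, an upstream and a downstream one. Transcripts from chr12:100473708-100473955 had 4.97 ± 1.83 FPKM in control, 3.84 ± 1.10 at 1 mM mesotrione, 3.38 ± 1.00 at 1 mM isoxaflutole and 1.14 ± 0.753 at 1 mM quizalofop-p-ethyl (mean ± SD, n = 5). Those from chr12:100503360-100503453 had 2.75 ± 1.88, 0.937 ± 0.960, 3.28 ± 1.18 and 0.306 ± 0.387. Both clusters were lower at 1 mM quizalofop-p-ethyl; these values were not tested, and the division of reads between overlapping isoforms is the assembler's estimate. The window before the downstream cluster (chr12:100503110-100503359, plus strand) is shown because that start supplied 33.1% of the NR1H4 locus FPKM in control; capitals mark the hexamer.
NR1H4 downstream window: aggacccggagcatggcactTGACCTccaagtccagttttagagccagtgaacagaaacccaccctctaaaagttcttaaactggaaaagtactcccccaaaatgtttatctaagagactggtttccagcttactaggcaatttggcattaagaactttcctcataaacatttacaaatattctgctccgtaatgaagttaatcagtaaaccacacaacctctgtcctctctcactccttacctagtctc
It has the hexamer once, on the opposite strand, where it reads TGACCT. The window at the used NR5A2 start, chr1:200027460-200027709, also has it once, with a TATA element on the opposite strand. In all, 23 RefSeq windows matched the 10 genes, at least 1 for each, and 6 of them hold the hexamer, beside 12.1% of all RefSeq windows. The 6 include overlapping PPARG windows, from 12288810 and from 12288820, that hold the same site. The count was not tested.

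**Figure D4:**
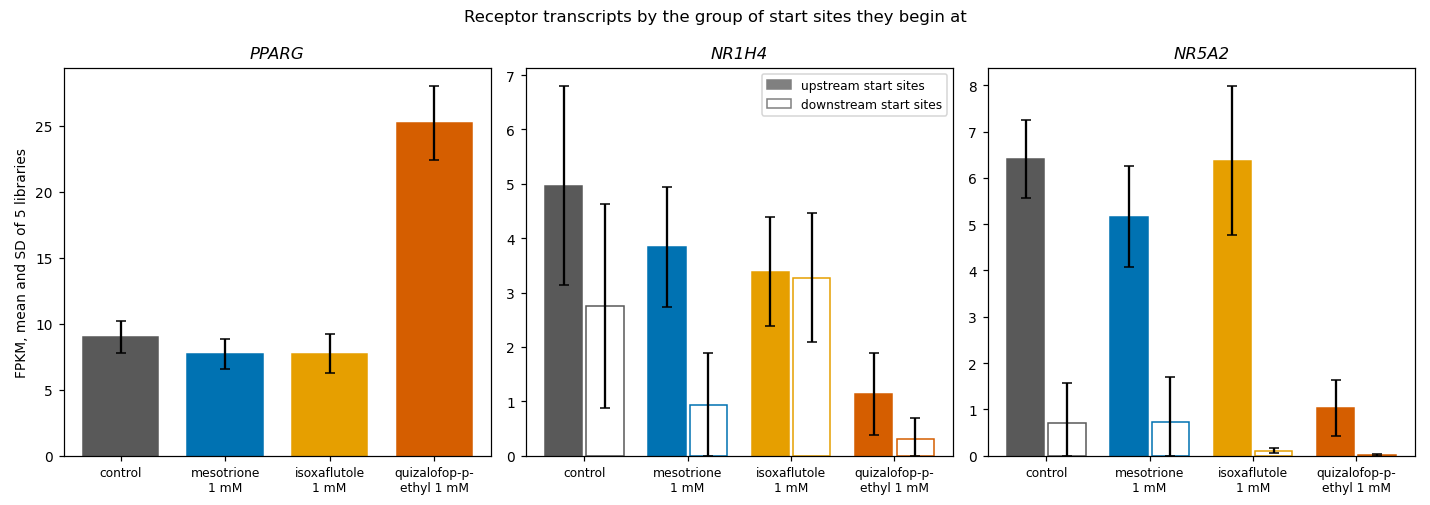
FPKM summed over transcripts that begin at the upstream (filled) or downstream (open) cluster of start sites, as mean and SD of 5 libraries with the lower arm ending at 0, for control and 1 mM of each compound; clusters under 5% of a locus are left out, and PPARG has 1 cluster. PPARG reaches 25.2 FPKM from its upstream cluster at 1 mM quizalofop-p-ethyl, and both NR1H4 clusters and the upstream NR5A2 cluster are lowest in that group.

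NR1I2 (PXR, chr3:119780484-119818485), the sensor of drugs and other foreign chemicals, had 2.17, 2.07, 1.52, 1.83 and 2.56 FPKM in control. At 1 mM quizalofop-p-ethyl it had 1.64, 0.322, 0.449, 0.250 and 0.270, so that 4 libraries lay far under the control range and 1 inside it. Mean FPKM went from 2.03 to 0.587, and the change on the log2(FPKM + 1) scale was -0.99 (SE 0.16, adjusted p = 1.73e-06 by limma). Mesotrione gave 1.41 to 2.84 and isoxaflutole 1.60 to 2.46 FPKM at 1 mM, both overlapping control, at -0.10 and -0.04 (95% intervals -0.42 to 0.23 and -0.36 to 0.28).

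NR1I3 (CAR, chr1:161229666-161238302, minus strand), the companion of PXR, was too low for a statement in either direction. It had 0.643, 0.193, 0.397, 0.473 and 0.915 FPKM in control and 0.325, 0.245, 0.783, 0.511 and 0 at 1 mM quizalofop-p-ethyl, the last being listed at 0. The groups overlapped, and with an estimated median of 8 fragments per library a difference was not detectable at this depth.

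RXRA (chr9:134317098-134440585), the shared partner, had 41.5, 37.3, 37.9, 42.1 and 37.8 FPKM in control and 21.7, 32.6, 30.6, 28.3 and 25.9 at 1 mM quizalofop-p-ethyl. The ranges did not overlap, although the fall was small next to those of NR5A2 and NR1H4, with a ratio of the means of 0.708 (log2 fold change -0.50, SE 0.08, adjusted p = 1.64e-06 by limma). In a fit that kept the shallow library the same change had an adjusted p of 0.174. At 1 mM mesotrione the libraries had 34.2, 32.5, 30.8, 36.1 and 36.2 FPKM, all under the lowest control value of 37.3, but the change of -0.21 (SE 0.08) did not pass, with an adjusted p of 0.265. On named transcripts RXRA and NR1H4 were thus the 2 of 10 genes whose mesotrione libraries did not overlap control, beside 3.78% of all genes. With 1 mM isoxaflutole none of the 10 stood without overlap on named transcripts, beside 5.99%. Nearly all RXRA signal, 98.1%, was on RXRA-202, which begins at 134326580 on chromosome 9. Its partner of the same family RXRB was 14.4 ± 0.253 FPKM in control and 16.0 ± 1.02 at 1 mM quizalofop-p-ethyl, and did not pass (0.14, adjusted p = 0.328).

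NR1H3 (LXRalpha, chr11:47248300-47269032), the oxysterol receptor, passed in no comparison with control. It had 9.49, 9.69, 10.3, 7.43 and 10.3 FPKM in control and 7.59, 11.05, 12.02, 12.97 and 7.51 at 1 mM quizalofop-p-ethyl, where 2 libraries lay low and 3 high. Mesotrione at 1 mM gave 4.64, 7.37, 8.01, 7.21 and 8.40, at -0.37 (SE 0.18, adjusted p = 0.424). Its sister receptor NR1H2 (LXRbeta) rose at 1 mM quizalofop-p-ethyl from 29.4 ± 2.02 to 38.2 ± 3.03 FPKM (mean ± SD, n = 5), at 0.36 with an adjusted p of 9.79e-05.

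Within the quizalofop-p-ethyl group at 1 mM the libraries were not alike. Replicate 1 had the highest level of NR1H4, NR1I2 and NR5A2, and replicate 5 the lowest of NR1H4. The summed hepatocyte markers were 5550, 1587, 2655, 2269 and 246 FPKM in replicates 1 to 5, so replicate 1 was also the highest there and replicate 5 the lowest. On named transcripts the lowest libraries of NR1I2 and NR5A2 were replicate 4, which had the median marker sum. For NR1I2 replicate 5 was close to it. With unnamed transcripts counted, NR5A2 was lowest in replicate 5, at 0.189 FPKM. For RXRA, in contrast, replicate 1 was the lowest. The part of the hepatocyte markers in the falls of NR1H4, NR1I2, NR5A2 and RXRA was not tested. Biliary markers summed to 85.6 to 186 FPKM in this group against 636 to 727 in control, and mesenchymal ones to 15.2 to 27.2 against 52.9 to 68.5. Of the 6 mesenchymal markers tested 4 fell, beside 24.4% of all genes. PDGFRB, named after its value was seen, rose from 2.37 ± 1.87 to 6.81 ± 3.89 FPKM (mean ± SD, n = 5) with overlapping groups. Its part in the rises of PPARG and PPARD was not tested.

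The second question was whether the compounds differed from each other at the same dose, with p-values from limma adjusted over all genes within each of the 9 pairs. Isoxaflutole and mesotrione at 1 mM differed for none of the 10, where 0.389% of all genes were called, 0.0528% as lower. The unadjusted p was under 0.05 for NR1H4 and PPARD, and NR1H4 did not overlap between them (higher with isoxaflutole by 0.54, 95% interval 0.13 to 0.95, adjusted p = 0.404), beside 2.00% of all genes without overlap. Quizalofop-p-ethyl against mesotrione gave 7 calls, beside 39.8% of all genes, and 4 genes without overlap, beside 27.5%. PPARG was higher by 1.63 (SE 0.10), PPARD by 1.20 (SE 0.40) and NR1H3 by 0.46 (SE 0.18), and NR5A2, NR1H4, NR1I2 and RXRA were lower, at -2.03, -1.19, -0.89 and -0.29. The RXRA libraries overlapped, and its call was lost in the 2 groups alone (adjusted p = 0.0638 by limma) and with all 50 libraries (0.496). The call of PPARD did not hold without mesotrione replicate 3 (0.59, adjusted p = 0.140), the library with 0.0399 FPKM on named transcripts. With unnamed transcripts PPARD was higher by 0.68 (SE 0.10, adjusted p = 1.60e-07) and the groups did not overlap. NR1H3 passed narrowly (adjusted p = 0.0336) with overlapping libraries, and it was lost without any of 4 libraries, namely mesotrione replicate 1 and quizalofop-p-ethyl replicates 2, 3 and 4, with adjusted p up to 0.145. Quizalofop-p-ethyl against isoxaflutole gave 5 calls, beside 39.4% of all genes: PPARG at 1.54, NR1H4 at -1.73, NR5A2 at -1.53, NR1I2 at -0.95 and RXRA at -0.38. PPARD did not pass there on named transcripts (0.35, 95% interval -0.45 to 1.15) and passed with unnamed ones (0.34, SE 0.10, adjusted p = 0.00368). These pairs share their quizalofop-p-ethyl libraries.

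At the lower doses no receptor passed the test. The 60 values of the 10 genes at 0.1 and 10 µM against control ran from -0.45 to 0.63 on the log2(FPKM + 1) scale, and none passed, with a lowest adjusted p of 0.965 and no unadjusted p under 0.05. In none of the 60 did the groups part without overlap. Among all genes this was so for 0.502% with mesotrione, 1.40% with isoxaflutole and 0.772% with quizalofop-p-ethyl at 0.1 µM, and for 0.475%, 0.825% and 2.49% at 10 µM. Single 95% intervals reached from -1.18 to 1.48, so changes within that span could not be told from 0 for the most variable genes. The 60 values between compounds at these doses gave 0 calls as well, with 3 unadjusted p under 0.05. In these pairs at most 0.0198% of all genes were called. At 0.1 µM and 10 µM, 0.00% of all genes were called in 5 of the 6 comparisons against control, and in the sixth, quizalofop-p-ethyl at 10 µM, 0.00660%.

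The target genes of the receptors were described next, from lists of genes that each receptor is known to control in liver. These lists were chosen with earlier results of these data known, so the counts from them are descriptive and were not tested. PPAR targets moved in both directions at 1 mM quizalofop-p-ethyl: 12 of 30 rose and 11 fell, beside 17.3% and 24.4% of all genes. Their median was -0.09 against -0.06 for all genes. Those that rose included ANGPTL4, an inhibitor of lipoprotein lipase, from 2.45 ± 0.443 to 97.6 ± 6.75 FPKM (mean ± SD, n = 5), and PLIN2, that coats lipid droplets, from 33.7 ± 2.11 to 689 ± 192. FABP4, the fatty acid carrier known as a PPARG target of adipocytes, went from 0.353 ± 0.160 to 29.5 ± 16.6, PDK4 from 5.19 ± 1.03 to 55.7 ± 16.1, and CPT1A, which admits fatty acids to mitochondria, from 27.8 ± 3.07 to 56.9 ± 8.96. Among those that fell were VNN1 from 113 ± 26.4 to 15.2 ± 15.6 and CYP4A11 from 5.84 ± 2.24 to 0.247 ± 0.218.

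Isoxaflutole at 1 mM raised 9 of the 30 PPAR targets and lowered 1, with a median of 0.33 against 0.01 for all genes. There 3.87% of all genes were called, 1.99% as higher, and none of the 10 receptor genes. ANGPTL4 reached 25.1 ± 5.93 FPKM, FABP4 4.83 ± 1.55, PLIN2 80.98 ± 7.19, PDK4 12.3 ± 1.94 and CPT1A 42.9 ± 3.28, none overlapping control. CYP4A11 fell to 1.53 FPKM. No PPAR gene itself passed in this group on named transcripts. Mesotrione at 1 mM raised none of the 30 and lowered CYP4A11 and PLIN5, in a comparison where 1.41% of all genes were called, 0.290% as higher, and none of the 10 receptor genes. Neither passed in the 2 groups alone or with all 50 libraries.

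PXR and CAR targets followed. With 1 mM isoxaflutole CYP3A4, the main drug-oxidising enzyme of the liver, was 80.3 to 274 FPKM against 2.53 to 3.10 in control, CYP3A5, CYP3A7 (the fetal form, named after its value was seen) and TSKU rose as well, and CYP2C8 fell, in all 4 up and 1 down of 19 tested. Mesotrione raised CYP3A4 to 10.8 ± 5.08 FPKM and lowered CYP2C8 from 30.3 ± 2.46 to 12.3 ± 4.24, and these were its only calls in the list. Among all genes, 1.99% were called higher and 1.88% lower with isoxaflutole, and 0.290% and 1.12% with mesotrione. NR1I2 and NR1I3 passed in neither group. At 1 mM quizalofop-p-ethyl 13 of 19 fell and 3 rose, beside 24.4% and 17.3% of all genes, with a median of -1.14. GSTA1 and GSTA2, glutathione transferases, fell from 400 ± 154 to 27.98 ± 22.9 and from 67.6 ± 19.96 to 2.85 ± 2.28 FPKM, and CYP2C8 to 0.849 ± 0.511. CYP3A4 fell to 0.922 ± 1.14 and CYP2B6, the usual CAR target, from 2.76 ± 1.60 to 0.297 ± 0.329, while UGT1A1 at 39.5 ± 23.1 against 58.4 ± 17.4 did not pass. POR, the electron donor of the cytochromes P450, rose from 38.1 ± 5.17 to 199 ± 43.5, and TSKU and ALAS1, the first enzyme of heme synthesis, rose too. CYP3A, CYP2C, UGT1A and GSTA genes have near-identical copies or shared exons, so reads may have been divided between them.

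LXR targets rose and fell at 1 mM quizalofop-p-ethyl, 6 and 4 of 13, beside 17.3% and 24.4% of all genes, with a median of 0.41. The cholesterol exporter ABCG1 rose from 1.12 ± 0.470 to 3.67 ± 0.693 FPKM and LPL from 6.92 ± 0.684 to 16.4 ± 4.37. ABCA1 at 0.76 and SCD at 1.04 passed with overlapping groups. SREBF1, a master gene of lipid synthesis, fell from 38.7 ± 6.15 to 17.5 ± 7.05, APOE from 2078 ± 212 to 690 ± 266, and ABCG8, at 7.57 ± 1.11 in control, is listed at 0 in the 5 exposed libraries. Isoxaflutole raised LPCAT3 alone, and mesotrione lowered APOE alone, beside 1.99% of all genes called higher and 1.12% called lower in the respective comparisons. Both calls were lost with all 50 libraries, and that of APOE also with a pseudocount of 0.1, without the filter and in the 2 groups alone.

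FXR targets showed no called rise at 1 mM quizalofop-p-ethyl, with 9 of 11 fallen, beside 24.4% of all genes, and a median of -1.003. The largest falls were of secreted liver proteins, FGB from 1822 ± 382 to 103 ± 116 FPKM and KNG1 from 108 ± 20.8 to 8.30 ± 13.9, and of UGT2B4 from 109 ± 10.4 to 8.95 ± 6.87. NR0B2 (SHP), the repressor through which FXR restrains bile acid synthesis, fell from 4.07 ± 0.796 to 2.47 ± 2.01 with overlapping groups (adjusted p = 0.0319). ABCB11, SLC51B and FGF19, standard readouts of FXR, were at or under 0.520 FPKM in all control and 1 mM libraries and were not tested. FETUB, at 3.05 ± 0.378 in control, fell at 1 mM mesotrione and isoxaflutole and is listed at 0 after quizalofop-p-ethyl.

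Bile acid synthesis genes and targets of LRH-1 all fell at 1 mM quizalofop-p-ethyl, 7 of the 7 tested, with a median of -0.91. Among all genes 24.4% were called lower there. CYP7A1, the rate-limiting enzyme, was 1.00 ± 0.110 FPKM in control and at most 0.0236 in the exposed libraries. CYP7B1 fell from 6.47 ± 0.556 to 2.72 ± 0.781 and ACOX2 from 1.55 ± 0.681 to 0.0867 ± 0.0634. In the same comparison 13 of 13 hepatocyte markers fell, with a median of -4.19, and the part of that loss in the falls of the FXR, LRH-1, PXR and CAR lists was not tested.

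**Figure D5:**
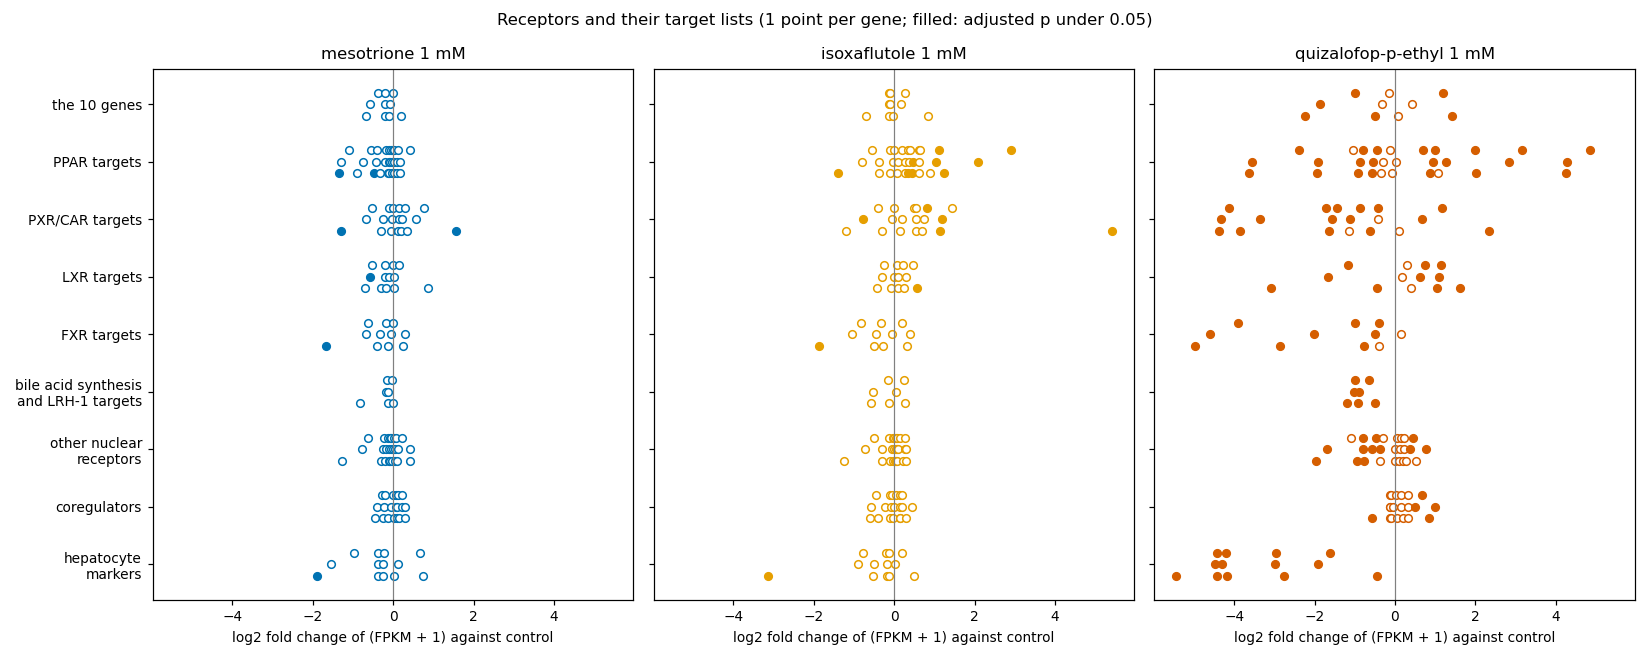
Log2 fold change of (FPKM + 1) against control at 1 mM for every tested gene among the 10, the lists of target genes, the other nuclear receptors, the coregulators and the hepatocyte markers (1 point per gene, with 1 panel per compound; filled points passed an adjusted p of 0.05). With quizalofop-p-ethyl PPAR and LXR targets lie on both sides of 0 while the FXR, bile acid and hepatocyte lists have no filled point above 0; with isoxaflutole the outlying points to the right are CYP3A4 at 5.43 and ANGPTL4 at 2.91.

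Other nuclear receptors and coregulators were described last among the lists. Of 26 further receptors tested, 3 rose and 9 fell at 1 mM quizalofop-p-ethyl, where 41.7% of all genes were called, with a median of -0.01, and none was called at 1 mM mesotrione or isoxaflutole. HNF4A, which maintains hepatocyte identity, fell from 26.6 ± 2.11 to 6.90 ± 3.40 FPKM and RARG from 8.83 ± 0.497 to 2.47 ± 1.88, both without overlap. ESRRA, a partner of PGC-1alpha in mitochondrial programmes, rose from 24.96 ± 0.637 to 43.1 ± 3.77, and VDR rose from 2.47 ± 1.29 to 3.59 ± 0.854 with overlap. AHR, the dioxin receptor, is no nuclear receptor and did not pass in any group at 1 mM; it was 56.3 ± 4.44 in control and 53.7 ± 8.91 at 1 mM quizalofop-p-ethyl. Among 20 coregulators 5 were called, beside the same 41.7% of all genes: 4 rose, TBL1X, LPIN1, PPRC1 and CARM1 (the last named after its value was seen), led by TBL1X from 6.10 ± 0.700 to 13.1 ± 1.38, and TBL1XR1 fell. PPARGC1B, the sister of PPARGC1A, was 0.866 ± 0.299 and 0.726 ± 0.234 FPKM and did not pass.

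Whether the balance of transcripts within a receptor changed was also tested, for the 8 genes with at least 2 named transcripts that each held 10% of the FPKM. The share of the leading transcript was compared between control and 1 mM of each compound by exact two-sided permutation tests, 24 in all. After Benjamini-Hochberg adjustment none passed, and 3 had an exact p under 0.05, with quizalofop-p-ethyl in each case. PPARA-201 (ENST00000262735) went from 21.3 ± 14.4% to 56.4 ± 16.8% of named PPARA (n = 5 and 5, exact p = 0.0159, adjusted 0.381). NR1I2-202 (ENST00000393716) went from 27.7 ± 16.8% to 85.5 ± 32.5% (exact p = 0.0318) and NR1H4-203 (ENST00000392986) from 19.8 ± 12.8% to 3.58 ± 5.78% (exact p = 0.0476), both at the same adjusted value. The smallest p that 5 against 5 libraries allow is 0.00794, so over 24 tests a single share could not have passed and the lack of calls says nothing about stability. For PPARG the leading transcript PPARG-202 kept 58.5 ± 13.8% and 58.9 ± 11.8%, a difference smaller than the spread between libraries.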

How the data were processed

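RNA-seq was done on HepaRG libraries (stranded total RNA, paired reads, per the labels' protocols). The authors deposited 1 table of FPKM for 239290 assembled transcripts, made with HISAT2 and StringTie on GRCh38 per the submitters' processing notes; their versions and annotation are not given in the sources used here. In 20 of its columns the deposited FPKM held 24 slightly negative values, which were set to 0, and 1 broken line was rejoined. FPKM were summed per gene name; 40117 transcripts had none, and an alternative added those inside a single gene's locus.

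Log2(FPKM + 1) of 15152 genes in 49 libraries was fitted with limma 3.58.1 in R 4.3.3 (trend, robust, 1 mean per group), and p-values were adjusted by Benjamini-Hochberg within each of 18 comparisons. Tables and plots used Python 3.11.15, pandas 2.3.3 and matplotlib 3.10.9. In a simulated comparison of isoxaflutole at 1 mM with control over 14693 genes, limma recovered 21 of 50 genes changed 1.5-fold, 33 of 50 changed 2-fold and 44 of 50 changed 3-fold. There were 5 false calls among 148. The simulated noise was independent and normal. Changed genes had a control mean over 1 on the log2(FPKM + 1) scale, so genes as low as NR1I3 are not covered. Fragments were estimated from the smallest FPKM steps of single-exon transcripts of 300 to 1500 bases. GENCODE v29 holds the 143 Ensembl transcripts of the 10 genes, 142 with the same start and end.

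The receptors and lists were chosen with earlier results of these data known. From each list up to 3 genes that rose and 3 that fell most at 1 mM, among those reaching a mean of 1 FPKM, were named, beside a set of standard targets and partners named in any case; a few of these genes are not reported here. Alternatives were another pseudocount (0.1), no filter, median-ratio scaling, the 2 groups alone, all 50 libraries, a replicate block, unnamed transcripts added, and each library left out.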

Additional observations from a re-analysis of the deposited data

Results flagged for a closer look

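In 9 of 100 combinations of gene and group, 1 library stood far from the rest; chance gives about 1 in 20. On named transcripts these were PPARA at 7.632 FPKM in control and 6.191 at 1 mM isoxaflutole, both high, and NR5A2 at 0.763 at 0.1 µM mesotrione, low. The other receptors with such a library were NR1I2 at 2.836 at 1 mM mesotrione and 1.642 at 1 mM quizalofop-p-ethyl, NR1I3 at 1.136 at 0.1 µM isoxaflutole and NR1H4 at 11.55 at 0.1 µM quizalofop-p-ethyl, all high. NR1H3 at 7.426 in control and NR1H4 at 6.095 at 1 mM isoxaflutole were low. The 9 do not include the PPARD libraries at 0.134 FPKM in control and 0.0399 at 1 mM mesotrione. Leaving out either of these lost a PPARD call.

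Compounds differed at 1 mM by limma's test of the difference itself, on the log2(FPKM + 1) scale. Quizalofop-p-ethyl minus mesotrione was 1.63 for PPARG, 1.20 for PPARD, 0.46 for NR1H3, -0.29 for RXRA, -0.89 for NR1I2, -1.19 for NR1H4 and -2.03 for NR5A2. Quizalofop-p-ethyl minus isoxaflutole was 1.54 for PPARG, -0.38 for RXRA, -0.95 for NR1I2, -1.53 for NR5A2 and -1.73 for NR1H4.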

How the results depend on the processing

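Among the counts of the 10 genes past the threshold, mesotrione at 1 mM went from 0 to 1 with a replicate block (NR1H4, adjusted p = 0.0202 by limma), isoxaflutole at 1 mM from 0 to 1 with unnamed transcripts (PPARD), and quizalofop-p-ethyl against mesotrione from 7 to 4 both in the 2 groups alone and with all 50 libraries, losing NR1H3, PPARD and RXRA. Over all settings short of leaving out single libraries, quizalofop-p-ethyl gave 4 to 6 calls against control, 4 to 8 against mesotrione and 4 to 6 against isoxaflutole. The block changed neither the direction nor the call of the other 59 fold changes at 1 mM. The block was 5 runs of consecutive label numbers, each laid out with a library of every group, which no label ties to a batch. Of 216 pairs of libraries in the same run 31 correlated over 0.1 (median 0.0245, against -0.0144 between runs). Among 49 libraries 41 correlated best with their own run. What the runs stand for is not given by the labels. Calls against control at 1 mM quizalofop-p-ethyl were lost for PPARD in the 2 groups alone (adjusted p = 0.0907) and with all 50 libraries (0.0564), and for RXRA with all 50 (0.174). Against isoxaflutole RXRA was lost with all 50 (0.339), while PPARD passed in the 2 groups alone (0.0489). Leaving out single libraries gave 5 to 6 calls for quizalofop-p-ethyl against control, 6 to 7 against mesotrione, 5 against isoxaflutole and 0 in the other comparisons. The share of all genes called in each setting is not given here. Neither these counts nor those of the lists below are therefore read as particular to the genes counted.

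Signs turned only for values that had not passed in the fit used for the results above. Among the turned values, PPARA for quizalofop-p-ethyl against mesotrione passed with unnamed transcripts (adjusted p = 0.00519 by limma). PPARD at 1 mM mesotrione was -0.1165 with a pseudocount of 0.1, -0.00432 with median-ratio scaling and -0.01037 with unnamed transcripts. With unnamed transcripts PPARA was -0.02574 for quizalofop-p-ethyl against control, -0.241 against mesotrione and -0.1669 against isoxaflutole, and -0.07407 for isoxaflutole against mesotrione. In the same setting NR5A2 was 0.09293 for isoxaflutole against mesotrione and PPARGC1A -0.07482 for quizalofop-p-ethyl against mesotrione. The share of the leading PPARGC1A transcript at 1 mM mesotrione moved by -3.405 percentage points with unnamed transcripts in the total. As log2 ratios of that transcript to the rest, PPARG and PPARGC1A at mesotrione gave 0.1654 and -0.009734, PPARGC1A at isoxaflutole -0.1992 and NR5A2 at quizalofop-p-ethyl 1.739. The cause was not tested.

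Without single libraries, fold changes against control ranged from -0.0557 to 0.4523 for PPARA, -0.5762 to 0.6148 for PPARD and -0.1665 to 0.01496 for NR1I3 at mesotrione, from -0.1047 to 0.02075 for NR1I2 and -0.2204 to 0.007381 for NR1H4 at isoxaflutole, and from -0.003688 to 0.1752 for NR1H3 at quizalofop-p-ethyl. Isoxaflutole against mesotrione ranged from -0.1259 to 0.3214 for PPARA and -0.003388 to 0.1688 for NR1I2. Quizalofop-p-ethyl against mesotrione ranged from -0.03711 to 0.4058 for PPARGC1A and -0.1882 to 0.02036 for NR1I3, and against isoxaflutole from -0.01678 to 0.308 for PPARA. Of 60 fold changes 46 kept sign and side throughout. Shares ranged, in percentage points, at mesotrione from -12.12 to 4.292 for PPARG, -6.298 to 15.45 for PPARGC1A and -5.554 to 8.639 for NR1H4. At isoxaflutole they ranged from -4.142 to 5.876 for PPARG, -24.66 to 4.911 for NR1I3 and -5.802 to 1.482 for NR1H3. At quizalofop-p-ethyl they ranged from -4.152 to 5.339 for PPARG, -14.3 to 5.391 for PPARGC1A, -15.43 to 14.63 for NR1I3 and -31.74 to 0.7176 for NR5A2.

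With all 50 libraries, at 1 mM quizalofop-p-ethyl the count of other receptors went from 12 to 6, coregulators from 5 to 2 and bile acid genes from 7 to 4, and at 1 mM isoxaflutole PPAR targets went from 10 to 5 and PXR and CAR targets from 5 to 2. With unnamed transcripts coregulators went from 5 to 12. At 1 mM mesotrione the 2 PPAR targets became 0 in the 2 groups alone and with all 50 libraries and 1 without the filter. There the LXR target became 0 in those 3 settings and with a pseudocount of 0.1, and 2 with unnamed transcripts, and the FXR target became 0 without the filter, with a pseudocount of 0.1 and with all 50 libraries. The LXR target of isoxaflutole became 0 with all 50 libraries and 2 with median-ratio scaling or unnamed transcripts. NR1I3 gave no value in the 2 groups alone, where it did not pass the filter. At a median of 8 fragments for NR1I3 and 69 for NR1I2 depth limits what can be seen.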
